A study of Mus musculus with 12 samples.

Results

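The genes that carry the synthesis of prostaglandins, thromboxane and leukotrienes were followed across a macrophage and a fibroblast RNA-seq experiment. The 10 genes were listed by their role in the pathway: Pla2g4a, Ptgs1, Ptgs2, Ptges, Hpgds, Tbxas1, Alox5, Alox5ap, Lta4h and Ltc4s. They are 10 of 32544 genes in the deposited table, and all 10 were among the 14285 genes that passed the filter on low counts. A further 61 genes of arachidonate release, prostanoid and leukotriene conversion, breakdown, transport and reception were listed, and 41 of them passed that filter.

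The study asked how loss of the oxygen sensor PHD2 in myeloid cells acts on macrophages and, through what they secrete, on fibroblasts. Bone marrow-derived macrophages (BMDMs) were grown for 7 days with 15% L929-conditioned medium and collected 24 h after seeding. They came from mice with a conditional PHD2 knockout (PHD2cko) driven by LysMCre, a Cre recombinase of myeloid cells, or from LysMCre controls (called PHD2 WT). NIH/3T3, an established mouse fibroblast line, was kept in low serum and then for 72 h in medium conditioned by WT or PHD2cko BMDMs, which also held 15% L929-conditioned medium. Each of the 4 groups held 3 libraries of polyA RNA. The sources used here give no oxygen level for these cultures and do not say whether the 3 libraries of a group came from separate mice or cultures, so p-values measure the spread between these libraries, which may be technical. Age and sex of the donor mice of these cultures were not given in the labels.

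Eicosanoids are short-lived lipid signals made from arachidonic acid, which cytosolic phospholipase A2 (Pla2g4a) releases from membranes. The cyclooxygenases Ptgs1 and Ptgs2 convert it to prostaglandin H2, from which terminal synthases make prostaglandin E2 (Ptges), prostaglandin D2 (Hpgds) and thromboxane A2 (Tbxas1). In the other branch Alox5, the 5-lipoxygenase, works with its activating protein Alox5ap to make leukotriene A4, which Lta4h turns into leukotriene B4 and Ltc4s into the cysteinyl leukotriene C4. Macrophages are known to use both branches, while fibroblasts are known mainly as makers of prostaglandin E2.

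The libraries held 15516465 to 25199770 counts, and 3 counts came to at most 0.193 CPM of a library's total. CPM, a gene's count relative to its library's depth, is scaled by TMM (edgeR's trimmed mean normalization) unless stated as CPM of total. Egln1, which encodes PHD2, was at 55.8, 54.7 and 55.5 CPM in WT BMDMs and at 68.8, 68.3 and 71.6 CPM in the libraries labelled PHD2cko. It was higher, not lower, under the PHD2cko label (log2 fold change 0.33, SE 0.0527, edgeR adjusted p = 0.00203), so every direction given here rests on the labels. Where the deletion lies in the transcript was not given with these values, and reads outside a deleted exon do not check it. The paper reports its own PHD2 knockdown check by PCR in PHD2cko BMDMs. It also reports an activated hypoxia response in their RNA-seq. These checks were not repeated here. The tissue labels held: the 23 macrophage markers summed to 42626 to 48739 CPM of total in BMDMs and the 14 fibroblast markers to 30118 to 37011 in 3T3 cells. Replicate 1 of 3T3 in WT medium was set off from replicates 2 and 3 (chi-square over degrees of freedom 24.8 and 26.9), which gave 2.35 between themselves. Replicate 3 of PHD2cko BMDMs was set off less, at 8.42 and 7.41 against 2.14 between replicates 1 and 2. Without it Alox5 and Ptges still passed as lower in PHD2cko BMDMs.

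Both synthesis genes that fell in BMDMs under the PHD2cko label, Alox5 and Ptges, and Hpgd, the prostaglandin-degrading enzyme that rose, are shown here by the 300 bases around their transcription start. These run from 250 bases before to 50 bases from the start, on build GRCm38.p6, as given by RefSeq. Capitals mark ACGTG or GCGTG on either strand, the core letters that hypoxia-inducible factors bind.
Alox5, chr6:116461129-116461428, minus strand: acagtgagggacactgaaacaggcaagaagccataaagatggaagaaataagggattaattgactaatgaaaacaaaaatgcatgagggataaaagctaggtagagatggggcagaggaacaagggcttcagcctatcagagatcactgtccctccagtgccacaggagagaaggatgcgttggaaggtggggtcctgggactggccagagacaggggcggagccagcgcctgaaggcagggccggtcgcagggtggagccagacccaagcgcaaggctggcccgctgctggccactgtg
Ptges, chr2:30903248-30903547, minus strand: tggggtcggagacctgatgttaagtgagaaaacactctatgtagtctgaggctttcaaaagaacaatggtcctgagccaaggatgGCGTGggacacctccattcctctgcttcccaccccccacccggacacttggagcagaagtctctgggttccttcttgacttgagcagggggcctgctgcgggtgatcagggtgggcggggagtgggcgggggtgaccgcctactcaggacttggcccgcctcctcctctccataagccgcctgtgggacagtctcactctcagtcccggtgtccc
Hpgd, chr8:56294302-56294601, plus strand: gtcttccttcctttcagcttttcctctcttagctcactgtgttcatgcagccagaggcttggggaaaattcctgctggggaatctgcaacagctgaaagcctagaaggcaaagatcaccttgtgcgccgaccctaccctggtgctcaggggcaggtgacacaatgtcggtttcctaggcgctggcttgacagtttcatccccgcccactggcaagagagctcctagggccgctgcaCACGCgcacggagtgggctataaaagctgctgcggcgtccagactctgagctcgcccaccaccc
Alox5 held none of these letters in this window, Ptges held GCGTG 165 bases before the start, and Hpgd held the reverse letters CACGC 14 bases before it. Of the 10 genes, 9 matched the promoter table, and 3 of the 9 (Ptgs2, Ptges and Pla2g4a) had a match, against 43.8% of all 32851 promoters. A match describes letters only and was not tested as a binding site.

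Per length, in WT BMDMs the order was led by Alox5ap with 321 CPM per kb of exon (SD 11.2, n = 3), followed by Hpgds with 57.1 (SD 0.949) and Tbxas1 with 18.5 (SD 0.290). Ptgs1 followed at 15.3 CPM per kb, Lta4h at 12.7, Ltc4s at 11.0 and Alox5 at 7.23. Pla2g4a at 1.82, Ptges at 1.28 and Ptgs2 at 0.321 CPM per kb were lowest. No neighbours in this order overlapped between libraries, but Ptgs1 and Lta4h changed places when the longest transcript gave the length. In 3T3 cells in WT medium Ptgs1 led with 24.7 CPM per kb (SD 0.450, n = 3), before Ptgs2 with 18.9, Pla2g4a with 17.5, Lta4h with 15.2, Ptges with 13.5 and Alox5ap with 10.2. Ltc4s was at 1.95, while Hpgds at 0.123 and Tbxas1 at 0.122 CPM per kb overlapped. Alox5 was last at 0.00413, with 1 count in replicate 1 and 0 in the others. With the longest transcript as length Ptgs2 came after Pla2g4a and Lta4h.

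**Figure D1:**
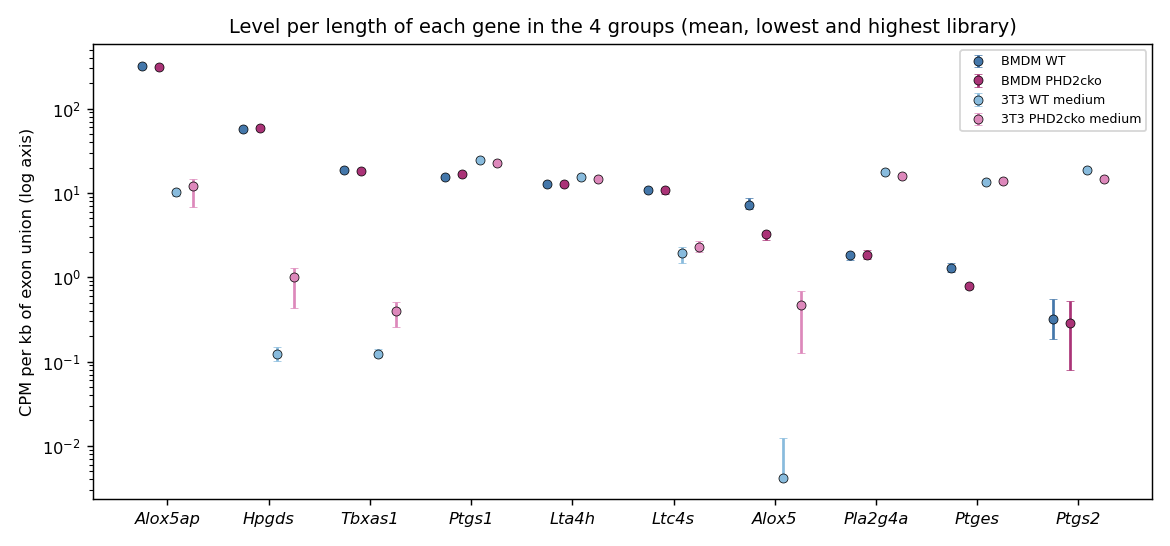
Mean level of each gene per kb of exon union in the 4 groups (CPM per kb, log axis, n = 3 each), with bars from the lowest to the highest library; a lowest value of 0 is not drawn. Alox5ap leads at 321 CPM per kb in WT BMDMs, while Ptgs2, at 0.321 there, stands at 18.9 in 3T3 cells in WT medium.

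Between the cell types, Alox5, Alox5ap and Ltc4s of the leukotriene branch, Hpgds and Tbxas1 were higher in macrophages. Lta4h, Pla2g4a, both cyclooxygenases and Ptges were higher in fibroblasts. Of the 10 genes, 5 were higher and 5 lower in WT BMDMs than in 3T3 cells in WT medium, where 85.3% of all genes tested passed the threshold (40.4% higher and 44.9% lower), so passing is no distinction of these genes. None of the 10 overlapped between the cell types, as for 85.1% of all genes (40.4% higher and 44.8% lower). The cells also differed in culture medium and time, which cannot be told apart from cell type. On the log2 scale Hpgds was 8.88 higher (SE 0.279), Tbxas1 7.24 (SE 0.141), Alox5ap 4.98 (SE 0.198) and Ltc4s 2.48 (SE 0.149). For Alox5, whose 3T3 libraries in WT medium held 1 count in all, the ratio of pooled counts, scaled by TMM library size, was 1968 with a 95% exact interval of 353 to 77796 for counting error. Lower in BMDMs were Ptgs2 (log2 fold change -5.89, 59.4-fold lower), Ptges (-3.40, 10.5-fold) and Pla2g4a (-3.27, 9.62-fold). Ptgs1 fell by 0.69 and Lta4h, the leukotriene A4 hydrolase, by only 0.26, and both still passed (edgeR adjusted p = 2.53e-08 and 1.24e-04). Over the 10 genes the median log2 difference was 1.11, beside -0.08 over all genes.

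Of the 41 further pathway genes tested, 25 were higher and 11 lower in BMDMs, where 40.4% of all genes were higher and 44.9% lower. Ptgis, the prostacyclin synthase, had 0 counts in all 6 BMDM libraries and was at least 231-fold lower in WT BMDMs than in 3T3 cells, where it lay at 48.5, 39.9 and 40.7 CPM. Ptgfr, the prostaglandin F receptor, held 1 count over the 3 WT BMDM libraries and 53.6 to 56.0 CPM in the fibroblasts. The reverse held for Ptger3, a prostaglandin E2 receptor with 1 count in 3T3 cells in WT medium and 14.5 to 14.8 CPM in WT BMDMs, and for Cysltr1, the cysteinyl leukotriene receptor (log2 9.31, SE 0.196). Higher in BMDMs were also Fam213b, a prostaglandin F synthase with 0 counts in 3T3 cells in WT medium (at least 160.4-fold), Cyp4f18, which oxidises leukotriene B4 (count ratio 654, 95% exact interval 223 to 3176, 3 counts in 3T3 cells in WT medium), the prostaglandin E2 receptor Ptger2 (log2 7.48), the dipeptidase Dpep2 (log2 7.35), the leukotriene B4 receptor Ltb4r1 (count ratio 153, interval 26.9 to 6104, 1 count there) and the diacylglycerol lipase Daglb (log2 4.95). Slco2a1, the prostaglandin transporter, was lower (log2 -5.28), and Dpep1, a dipeptidase with 0 counts in WT BMDMs, was at least 12.3-fold lower.

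**Figure D2:**
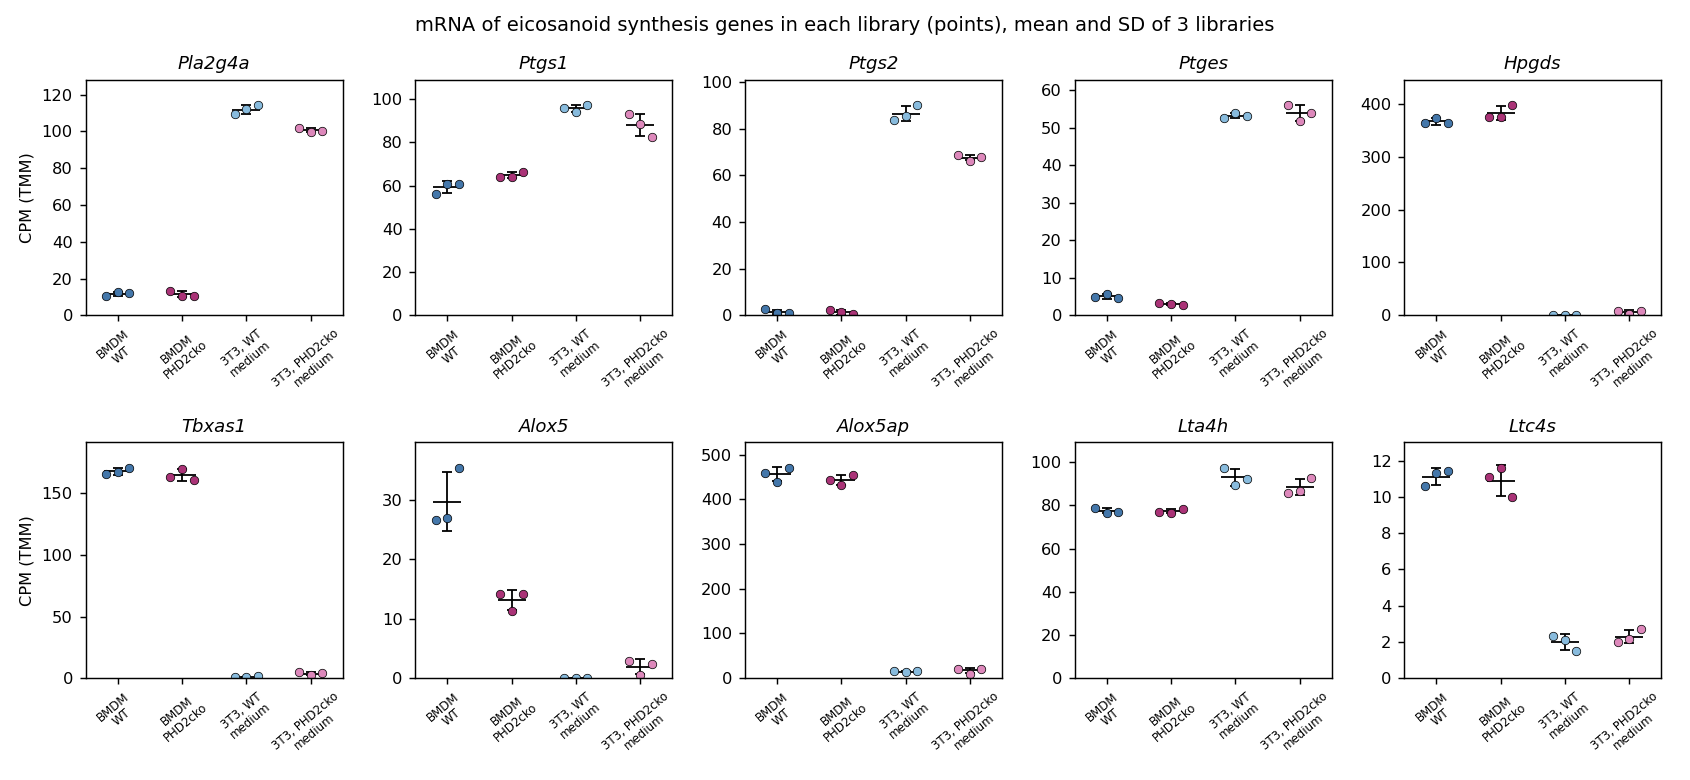
CPM of the 10 genes in each library (points) with the mean and SD of 3 libraries per group, each panel on its own linear axis from 0. Alox5 and Ptges separate the BMDM groups, with Alox5 at 26.7 to 35.4 CPM in WT and 11.3 to 14.2 in PHD2cko libraries.

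Under the PHD2cko label 2 of the 10 genes changed in macrophages, and both fell. Alox5, the entry enzyme of leukotriene synthesis, was at 26.7, 27.0 and 35.4 CPM in the WT libraries and at 14.2, 11.3 and 14.2 in the PHD2cko libraries. The groups did not overlap, and Alox5 fell by 1.16 on the log2 scale (2.24-fold lower, SE 0.221, 95% interval -1.64 to -0.68, edgeR adjusted p = 0.00650). Ptges, the inducible prostaglandin E2 synthase, was at 4.80, 5.75 and 4.56 CPM in WT and at 3.28, 3.14 and 2.83 in PHD2cko. It fell by 0.71 (1.64-fold lower, SE 0.112, 95% interval -0.96 to -0.47, adjusted p = 0.00176). Of all genes tested 6.73% passed in either direction and 3.35% were lower. The median over the 10 genes was -0.03, beside 0.00 over all genes. Both calls held with each library left out in turn. Over every alternative run, the log2 difference of Alox5 ranged from -1.23 to -1.02 (adjusted p 3.69e-06 to 0.0499) and that of Ptges from -0.78 to -0.61 (adjusted p 2.46e-04 to 0.0131).

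The other 8 genes did not pass. Alox5ap, the partner of Alox5, was at 458, 439 and 471 CPM in WT and at 443, 432 and 455 in PHD2cko libraries, a log2 difference of -0.04 (95% interval -0.39 to 0.31). The enzymes after Alox5 gave intervals from -0.10 to 0.10 for Lta4h and from -0.31 to 0.24 for Ltc4s. Hpgds was higher in every PHD2cko library, at 376, 375 and 398 CPM against 363, 374 and 364, but its log2 difference of 0.06 did not pass (adjusted p = 0.912). Ptgs1, the constitutive cyclooxygenase, was likewise higher in every library, at 64.2, 64.2 and 66.5 CPM against 56.4, 61.0 and 60.8 (log2 0.13, SE 0.0524, adjusted p = 0.191). With the BMDM libraries fitted alone its adjusted p was 0.0477. Ptgs2, the inducible cyclooxygenase, lay at 0.367 to 2.53 CPM in the BMDMs, with 7 to 39 counts a library, and its interval of -1.27 to 0.91 spans a change in either direction. Tbxas1 and Pla2g4a differed by -0.03 and -0.01. Of the 10 genes, 2 were lower and 2 higher without overlap, where 31.9% of all genes tested did not overlap (15.6% lower and 16.3% higher).

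**Figure D3:**
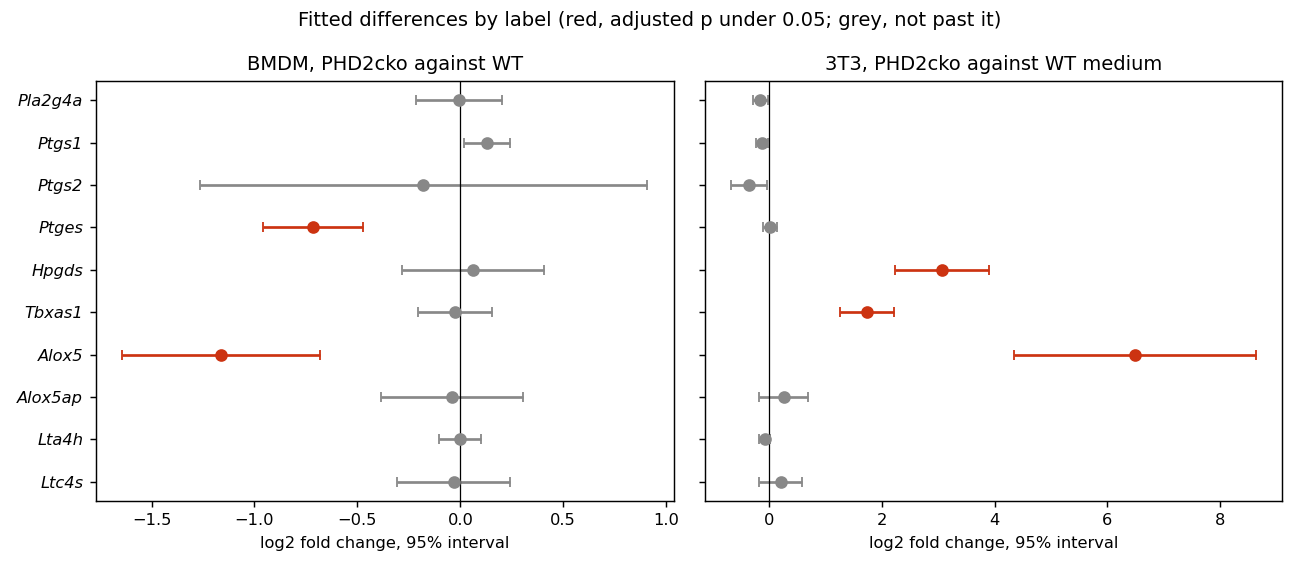
Log2 fold change with its 95% interval (x axis) of each gene by label, in BMDMs on the left and in 3T3 cells on the right, with red for an adjusted p under 0.05. Alox5 and Ptges lie to the left of 0 in BMDMs, and Hpgds, Tbxas1 and Alox5 to the right in 3T3 cells, where the interval of Alox5 depends on the prior count.

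Around these enzymes, Hpgd rose while 3 of 6 prostanoid receptor genes fell. Of the 41 further genes, 3 rose and 4 fell in BMDMs (edgeR, adjusted p under 0.05), where 3.38% and 3.35% of all genes did. Among the 41 are Ptgis and Dpep1, which had 0 counts in every BMDM library and could not be called there. Hpgd, which inactivates prostaglandins by oxidising the 15-hydroxyl group, had 15, 11 and 11 counts in WT libraries and 875, 730 and 1028 in PHD2cko libraries. It rose by 6.08 on the log2 scale (SE 0.150, adjusted p = 1.14e-10), from 0.974, 0.666 and 0.669 CPM to 53.1, 49.9 and 54.0 CPM. It was the 1 gene called of 5 tested for prostanoid breakdown and transport, and Ptgr1, Ptgr2, Slco2a1 and Abcc4 did not pass. Hpgd lies at chr8:56294585-56321043, on the chromosome of Egln1 and 68.6 Mb from it. The receptor genes gave 3 falls of 6 tested and no rise. Ptgfr, among the 6, held only 1 count over the WT and 4 over the PHD2cko BMDM libraries. Ptger3, which couples prostaglandin E2 to lower cyclic AMP, fell by 0.98 (14.5, 14.7 and 14.8 to 6.74, 7.65 and 7.93 CPM, adjusted p = 0.00121). Ptgir, the prostacyclin receptor, fell by 0.58 (adjusted p = 0.00112), and Ptger4, which raises cyclic AMP, fell by 0.31 (adjusted p = 0.00348). Ptger2 was lower in every PHD2cko library but did not pass (log2 -0.35, adjusted p = 0.0885).

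Cyp4f18, which oxidises leukotriene B4, fell by 1.93 (SE 0.121, adjusted p = 1.20e-06), from 29.3, 30.0 and 29.7 CPM to 7.89, 7.58 and 7.93. It lies at chr8:71988482-72009626, 52.9 Mb from Egln1, and shares 181 exonic bases with Zfp961 on the opposite strand. The sources used here do not say whether counting used strand, and without it reads in that stretch cannot be told apart. Zfp961 reached 282 counts in WT and 246 in PHD2cko medium 3T3 libraries, where Cyp4f18 reached 2 and 4. In WT and PHD2cko BMDMs Zfp961 reached 252 and 180 counts, and Cyp4f18 496 and 151. Daglb, which frees arachidonate-containing monoacylglycerol, rose by 0.30 (170.3, 158 and 161 to 198, 202 and 204 CPM, adjusted p = 0.00139). Lpcat2, an acyltransferase that returns fatty acids to phospholipids, rose by 0.27 (adjusted p = 0.0286). Without WT replicate 1 it was at 0.151, without WT replicate 3 at 0.103, and without PHD2cko replicate 1, 2 or 3 at 0.103, 0.101 and 0.0908, so its call did not survive those left-out libraries. Leukotriene receptors gave no call among 3 tested, and Cysltr1 was at 0.26 (adjusted p = 0.0844).

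**Figure D4:**
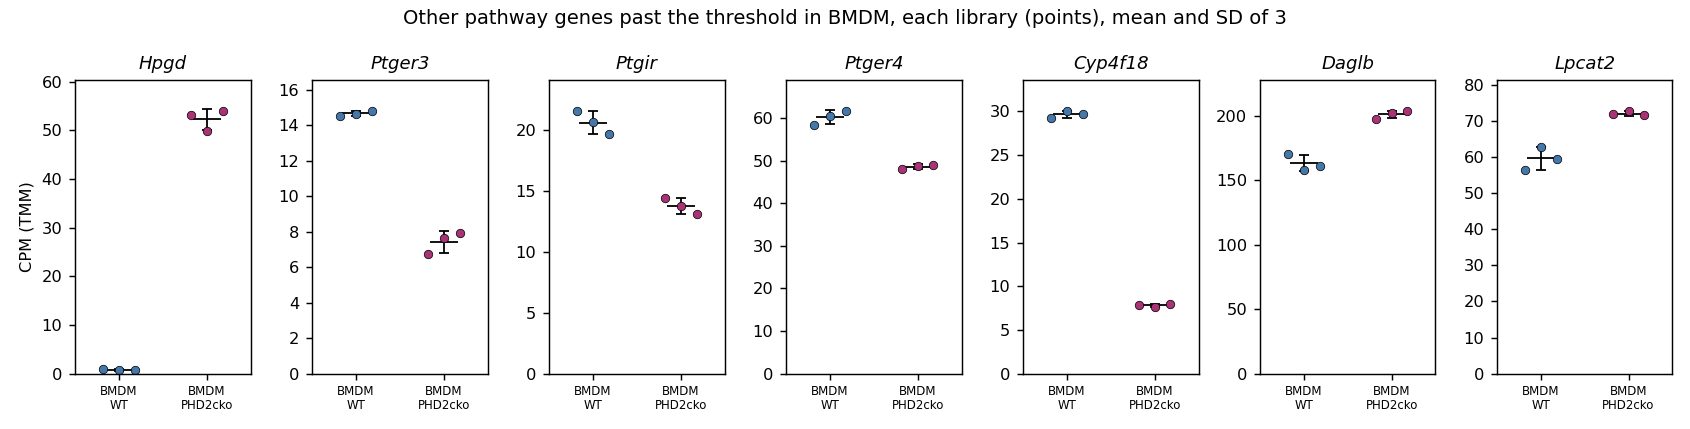
CPM of the 7 further pathway genes past the threshold in BMDMs, in each library (points) with mean and SD of 3, on linear axes from 0. Hpgd rises from under 1 CPM to 49.9 to 54.0 CPM, while Cyp4f18 falls from 29.3 to 30.0 CPM to 7.58 to 7.93.

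The summed level of the macrophage markers moved with the label in BMDMs: it was 47538 to 48739 CPM of total in WT and 42626 to 44188 in PHD2cko libraries, with none of the 23 at 0. Most of this difference lay in Lyz2, the highest of them, with a mean of 14811 CPM of total in WT and 10587 in PHD2cko libraries. Lyz2 is the lysozyme M gene, and the Cre of both BMDM groups is driven by lysozyme M. Whether the Lyz2 level follows macrophage content alone here was not tested. Mast cells, which use the leukotriene branch strongly, gave 0.640 to 1.10 and 1.00 to 1.25 CPM over 9 markers, of which 5 were at 0 in every library of each group. The 10 neutrophil markers summed to 3.07 to 3.55 and 2.82 to 3.17 CPM, most of it Cxcr2, and 8 of the 10 held at most 3 counts in any library of either group. The 5 B cell markers summed to 2.27 to 2.80 CPM of total in WT and 3.44 to 4.28 in PHD2cko libraries, without overlap. Cd79b was the highest of them, at a mean of 1.90 and 3.18, and 2 of the 5 were at 0 in every library of each group. Whether the macrophage or B cell marker shift plays a part in the falls was not tested. In bulk libraries, fewer cells of a type and less RNA per cell cannot be told apart.

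In 3T3 cells, 3 of the 10 genes rose in PHD2cko medium and none fell, where 15.7% of all genes tested passed (8.93% higher, 6.75% lower). All 3 are genes that macrophages carry at a far higher level. Hpgds was at 0.763, 0.653 and 0.952 CPM in WT medium and at 8.27, 2.78 and 8.18 in PHD2cko medium (log2 3.07, SE 0.381, edgeR adjusted p = 2.59e-04). Tbxas1 was at 1.02, 1.05 and 1.27 CPM and then at 4.63, 2.31 and 4.02 (log2 1.74, SE 0.223, adjusted p = 3.05e-04). Alox5 had 1, 0 and 0 counts in WT medium and 55, 9 and 49 in PHD2cko medium (adjusted p = 8.99e-04), a pooled count ratio of 130.2 scaled by TMM library size, with a 95% exact interval of 22.9 to 5189. In each of these genes the groups did not overlap, and PHD2cko replicate 2 was the lowest of its group. Their calls also held without WT medium replicate 1, the library farthest from its group, with log2 differences of 3.09 for Hpgds and 1.72 for Tbxas1. The median over the 10 genes was 0.11, beside -0.00 over all genes.

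The macrophage markers moved with these genes. Each 3T3 library was given a macrophage share, the summed level of the 23 markers as a percentage of their level in BMDMs of the same label. The share was 0.0598%, 0.0625% and 0.0632% in WT medium and 2.38%, 0.542% and 2.13% in PHD2cko medium (two-sided p = 0.1 by an exact permutation test, as low as 3 against 3 can go). At that share BMDM RNA would supply 144, 29.3 and 138 Hpgds counts, against 161, 48 and 169 observed in PHD2cko medium. For Tbxas1 it would supply 62.0, 12.6 and 59.2 against 90, 40 and 83. For Alox5 it would supply 4.97, 1.01 and 4.74 counts against 55, 9 and 49, so that the observed counts were 11.1, 8.90 and 10.3 times those of the share.

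The place of Alox5 among the 23 markers depended on the BMDM group used as reference, since Alox5 itself was lower in PHD2cko BMDMs. Set against its level in PHD2cko BMDMs, it was at 26.4%, 4.82% and 22.02% in the 3 PHD2cko medium libraries, while the highest of the 23 markers reached 15.6% (Cd14), 4.64% (Cx3cr1) and 12.6% (Cd14) and the marker medians were 3.57%, 0.789% and 3.19%. Its value in replicate 2 came from 9 counts. Set against WT BMDMs, a reference added after seeing the data, Alox5 was at 11.8%, 2.17% and 9.88%, below Cd14 at 15.3%, 4.24% and 12.4% and above the marker medians of 3.71%, 0.834% and 3.01%. Its counts were then 5.53, 4.44 and 5.16 times those of the share. Against PHD2cko BMDMs, Hpgds, at 2.67%, 0.888% and 2.62%, and Tbxas1, at 3.46%, 1.72% and 2.99%, lay within the range of the markers. Hpgds and Tbxas1 lay below the marker median in replicates 1 and 3 and above it in replicate 2. The share taken off was itself below that median in each PHD2cko medium library. In WT medium the share was above the marker medians of 0.0410%, 0.0573% and 0.0550%. With the share subtracted from every gene, Alox5 still rose (adjusted p = 0.00121), Hpgds rose by 1.05 (adjusted p = 0.0105) and Tbxas1 did not pass (log2 0.47, adjusted p = 0.173). A further fit kept replicate 2, the library of lowest share, as the lone PHD2cko medium library. Its log2 differences were 1.84 for Hpgds, 1.06 for Tbxas1 and 4.59 for Alox5, which held 9 counts in that library. That fit assumes the lone library varies like the other groups.

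**Figure D5:**
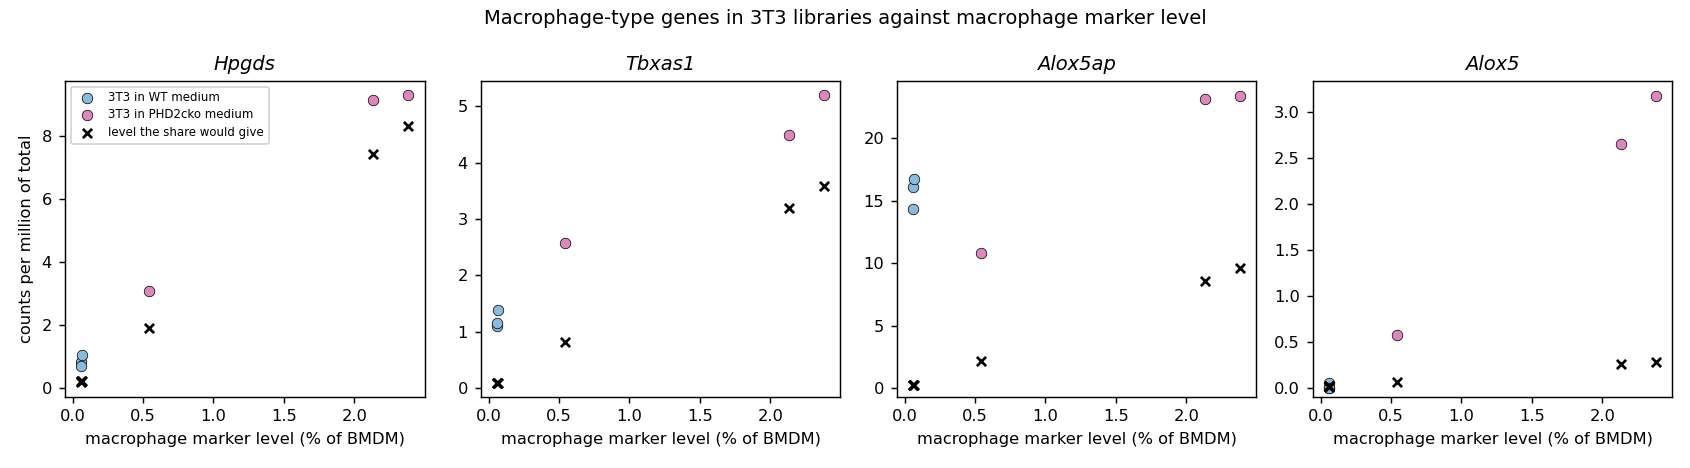
CPM of total of Hpgds, Tbxas1, Alox5ap and Alox5 (y axis) against the macrophage marker level as a percentage of BMDM (x axis) in the 6 3T3 libraries, with crosses for the level that this share of BMDM RNA would give. In PHD2cko medium the share would give 144 of 161, 29.3 of 48 and 138 of 169 Hpgds counts, and 4.97 of 55, 1.01 of 9 and 4.74 of 49 Alox5 counts. In WT medium it would give under 6 of the 15 to 18 Hpgds counts.

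Alox5ap was at 15.0, 13.1 and 15.4 CPM in WT medium and at 20.9, 9.72 and 20.7 in PHD2cko medium. The groups overlapped, and its log2 difference of 0.26 did not pass (adjusted p = 0.435). It was -0.32 with the share subtracted, -0.57 (adjusted p = 0.0226) with replicate 2 as the lone library, and 0.53 (adjusted p = 3.17e-04) without that library. Of the 10 genes, 3 were higher and 3 lower in PHD2cko medium without overlap. The 3 lower ones, Ptgs2, Pla2g4a and Ptgs1, did not pass. Ptgs2 was at 83.7, 85.5 and 90.1 CPM in WT medium and at 68.5, 66.2 and 67.8 in PHD2cko medium, without overlap. Its log2 difference of -0.36 (95% interval -0.68 to -0.03) did not pass (adjusted p = 0.131), but it passed with limma-voom (0.0239) and with the 3T3 libraries fitted alone (0.0105). Pla2g4a, whose gene lies 138740 bp from Ptgs2 on chromosome 1, was at 109, 112 and 114 CPM and then at 102, 99.8 and 100.3 (log2 -0.15, adjusted p = 0.135). Ptgs1 was lower in every library at -0.12 (adjusted p = 0.123), and 16.5% of all genes tested were lower without overlap, beside 15.4% higher and 31.9% in either direction. Ptges at 0.02, Lta4h at -0.07 and Ltc4s at 0.21 overlapped between the media.

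Among the 41 further genes, 6 were higher and 2 lower in PHD2cko medium, where 8.93% of all genes tested were higher and 6.75% lower. Ptger4 gave the firmest change, from 45.7, 44.1 and 41.9 CPM to 29.3, 33.0 and 32.8 (log2 fold change -0.47, SE 0.0550, edgeR adjusted p = 1.84e-04), and it held in every alternative run. Ptger4 also fell in BMDMs, so that it was lower under the PHD2cko label in both cell types. Akr1b3, which can act as a prostaglandin F synthase, rose by 0.33 (adjusted p = 0.0113), with 0.0572 without PHD2cko replicate 1 and 0.0555 without replicate 3. Ptgfr rose by 0.29 (adjusted p = 0.0378) and Pla2g15, a lysosomal phospholipase, fell by 0.21 (adjusted p = 0.0285). Leaving out single libraries lost the call of Ptgfr for all but WT medium replicate 1 and that of Pla2g15 for all but WT medium replicate 2, with adjusted p from 0.0773 to 0.114 and from 0.0531 to 0.0908. Without WT medium replicate 1 the difference of Pla2g15 was -0.12. Dpep2 (log2 1.35) and Daglb (0.43) rose, and turned to -1.76 and -0.24 with the macrophage share subtracted. Cysltr1 and Fam213b also passed, below 2 CPM in every 3T3 library, and were named after their values were seen. In PHD2cko medium the macrophage share would supply 27.8, 5.67 and 26.6 Cysltr1 counts, against 23, 8 and 22 observed. For Fam213b, which had 0 counts in WT medium, it would supply 6.90, 1.41 and 6.59 against 12, 0 and 3. With the 3T3 libraries fitted alone, 2 of the 41 genes passed.

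The label differences in the 2 cell types were set against each other by an interaction term, which 12.3% of all genes passed. The label difference was higher in 3T3 for 7.71% and lower for 4.58%. Of the 10 genes 5 passed, 4 of them with a higher label difference, not a higher level, in 3T3 than in BMDMs. For Ptges, which fell in macrophages and lay at 51.8 to 56.1 CPM in fibroblasts, the difference of differences was 0.73 (SE 0.125, adjusted p = 0.00194). Alox5 went in opposite directions, lower in BMDMs and higher in 3T3 cells (adjusted p = 3.55e-04). Over the 12 libraries, the gene whose log2 CPM was most like Ptges was Epb41l3 (Pearson r 0.999) and the one most like Alox5 was Clec4e (r 0.993). Both correlations run over libraries of 2 cell types.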

How the data were processed

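RNA of 12 samples, 3 in each of 4 groups, was sequenced with single reads. The authors deposited 1 table of estimated counts (expected counts, from kallisto on GRCm38 per the labels, not normalized; version and annotation not given in the sources used here). They were rounded to whole numbers. All 12 libraries were fitted together in edgeR 4.0.16 (R 4.3.3) with TMM, filterByExpr and the quasi-likelihood F test, with Benjamini-Hochberg adjustment over 14285 genes and a two-sided threshold of 0.05; 18259 genes were left out. The standard error was the log2 fold change over the root of F. Group totals of 0 were set to 3 counts per library for bounds, on the TMM scale. Levels per length used GENCODE exon unions on GRCm38. The same code was tested on simulated data. Each sample's group came from its label.

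The members and lists were chosen with earlier results of these data known. Named were all members, up to 12 further pathway genes per comparison past the threshold with at least 1 CPM in either group by size of change, the nearest gene to each member called in BMDMs, and Egln1. Same-numbered libraries did not deviate together, so the numbers were not used as pairs. Alternatives were DESeq2 size factors, the DESeq2 1.42.0 Wald test, limma-voom (limma 3.58.1), a minimum of 10 counts, no filter, a replicate block, each comparison's libraries alone, each library left out, and the macrophage share subtracted. A fit with replicate 2 as the lone library in PHD2cko medium and WT BMDMs as reference for the 3T3 levels were chosen after seeing the data. Intervals on counts cover counting error only. One feature of the mouse background that both BMDM groups share is not reported here.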

Additional observations from a re-analysis of the deposited data

Results flagged for a closer look

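The following genes differed between BMDMs and 3T3 cells in their PHD2cko against WT difference, by the edgeR interaction term (log2 difference in 3T3 minus that in BMDMs, n = 3 libraries per group). Among the synthesis genes, Alox5 gave 7.65 (SE 0.961, adjusted p = 3.55e-04), a fitted value that depends on the prior count since 3T3 cells in WT medium held 1 count. Hpgds gave 3.01 (SE 0.421, adjusted p = 5.93e-04) and 0.98 with the macrophage share subtracted (adjusted p = 0.0196). Tbxas1 gave 1.77 (SE 0.238, adjusted p = 4.73e-04) and 0.50 with the share subtracted (adjusted p = 0.167). Ptges gave 0.73 (SE 0.125, adjusted p = 0.00194) and 0.77 with the share subtracted. Ptgs1 gave -0.25 (SE 0.0722, adjusted p = 0.0394), from 0.13 in BMDMs and -0.12 in 3T3 cells. That call was lost in 10 of 12 fits with a library left out (adjusted p up to 0.105).

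Of the further pathway genes, Cyp4f18 gave 3.02 (SE 0.867, adjusted p = 0.0390) and 0.85 with the share subtracted (adjusted p = 0.899), with at most 4 counts in any 3T3 library. It held 3 counts over the WT medium and 6 over the PHD2cko medium libraries. These are too few to give a label difference in 3T3 cells, so its term cannot compare the cell types. Dpep2 gave 1.35 (SE 0.301, adjusted p = 0.0107) and -1.76 with the share subtracted. Ptgir gave 0.61 (SE 0.173, adjusted p = 0.0363) and 0.49 with the share subtracted (adjusted p = 0.139). Pla2g15 gave -0.31 (SE 0.0782, adjusted p = 0.0225) and -0.39 with the share subtracted (adjusted p = 0.00765).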

How the results depend on the processing

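Of the synthesis genes, 2 passed in BMDMs (2 to 2 with a library left out) and 10 between the cell types (10 to 10). In 3T3 cells 3 of them passed (3 to 4 with a library left out, and 2 with the macrophage share subtracted). In the interaction 5 of them passed (4 to 5 with a library left out, and 3 with the share subtracted). Of the further pathway genes, 7 passed in BMDMs (6 to 7 with a library left out, 13 with the BMDM libraries alone), and 36 between the cell types (36 to 38, 22 with at least 10 counts in every library). In 3T3 cells 8 passed (4 to 9 with a library left out, 2 with the 3T3 libraries alone and 1 with PHD2cko medium replicate 2 alone in its group). In the interaction 8 passed, and 2 to 9 with a library left out, 5 with limma-voom, 5 with at least 10 counts, 5 without a filter, 4 with the replicate block, 5 with the share subtracted and 0 with that lone library. The cause was not tested.

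Signs turned as follows. With the share subtracted, the 3T3 differences became -0.32 for Alox5ap, -1.76 for Dpep2 and -0.24 for Daglb, and the interaction of Alox5ap became -0.27. With the lone library, Alox5ap was at -0.57, Ptges at -0.037 and the interaction of Alox5ap at -0.53. The interaction of Ptgs2 was 0.025 with limma-voom and -0.80 to 0.60 with a library left out. Left-out libraries also moved the BMDM differences of Ptgs2 (-0.95 to 0.44), Lta4h (-0.012 to 0.011), Pla2g4a (-0.13 to 0.063) and Ltc4s (-0.076 to 0.031) and the 3T3 difference of Ptges (-0.0079 to 0.048) across 0, all without a call. With the replicate number as a block, Lpcat2 in BMDMs (adjusted p = 0.0542), Ptgfr in 3T3 cells (0.0592) and the interaction of Ptgs1 (0.0724) lost their calls, while the numbers did not pair the libraries (correlations of -0.0497 to 0.0242). Ptgs2 held 7 to 39 counts in the BMDM libraries. With at least 10 counts in every library, genes such as Alox5 in the comparisons that use 3T3 cells were left out by the filter and gave no value.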
